A study of Mus musculus with 8 samples.

Results

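Transcripts of 10 genes of the complement C1q and Fc gamma receptor system were described in sorted cells of the mouse colon, out of 55414 genes in the count table. The genes are C1qa, C1qb and C1qc, the chains of C1q; C3ar1 and C5ar1, receptors for complement fragments; Fcgr1, Fcgr2b and Fcgr3, receptors for IgG; and Fcer1g and Tyrobp, signalling adaptors. They were matched by gene name and were chosen from values of the same contrast that is described here, Emb knockdown against WT. Their levels and fold changes are therefore given as a description, and no test is used to support them.

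The libraries came from colon cells of mice aged 4 weeks, labelled as neurons of the enteric nervous system, the nerve network within the gut wall. One group was wild type (WT) and the other carried a knockdown of Emb, which encodes embigin, a transmembrane protein with immunoglobulin domains. Each group has 4 libraries, and the labels name 4 mice of each genotype without saying that each library held the cells of 1 mouse. The spread between libraries may therefore be technical in part. Cells stained for CD24 and CD56 were sorted into tubes of about 250 cells and copied with a Smart-seq kit, which amplifies RNA from very small inputs. The sources used here do not give how or in which cells the knockdown was made, nor the strain.

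C1q is the recognition unit of the classical complement pathway. Its A, B and C chains assemble together in a fixed ratio, and it binds antibody complexes, dying cells and synapses. In most tissues, the gut wall included, macrophages are its main source. Anaphylatoxin receptors read the C3a and C5a fragments that complement activation releases. Activating Fc gamma receptors bind IgG and depend on the common gamma chain, the product of Fcer1g, for surface expression and signalling, whereas Fcgr2b is the inhibitory member of the family. Tyrobp encodes DAP12, an adaptor that pairs with receptors such as TREM2.

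All 10 genes are protein coding, and positions are given on GRCm38. The C1q chains lie side by side on the minus strand of chromosome 4, within 18.7 kb: C1qb at chr4:136880129-136886187, C1qc at chr4:136889804-136893065 and C1qa at chr4:136895917-136898803. Fcgr2b (chr1:170958617-170976547), Fcgr3 (chr1:171051174-171064935) and Fcer1g (chr1:171229572-171234365) share the minus strand of chromosome 1 over 275.7 kb. Fcgr1 lies at chr3:96282909-96293969, C3ar1 at chr6:122847138-122856161 and C5ar1 at chr7:16246743-16259540, all on the minus strand. Tyrobp, at chr7:30413760-30417585, is the only member on the plus strand.

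Promoter sequences, the 250 bases before the start site in RefSeq (GRCm38.p6), were matched for 8 of the 10 genes. Shown are 4 of them, 2 C1q chains that neighbour each other and the 2 receptor genes whose Emb knockdown libraries all lay above the WT libraries. Printed is the stretch of each that holds a match and lies outside every exon of GENCODE M21, 5′ to 3′ on the minus strand. Counted in bases before the start site, it runs from 250 to 1 for C1qb and from 250 to 152 for C1qc. It runs from 223 to 1 for Fcgr3 and from 250 to 5 for C3ar1. The stretch of Fcgr3 lies within the annotated span of the gene. Capitals mark a match to GAGGAA, the core that ETS factors such as the myeloid regulator PU.1 bind, on either strand, or in C3ar1 a match to TGANTCA, the AP-1 site. C1qb is at chr4:136886201-136886450, C1qc at chr4:136893066-136893164, Fcgr3 at chr1:171059404-171059626 and C3ar1 at chr6:122856162-122856407.
C1qb: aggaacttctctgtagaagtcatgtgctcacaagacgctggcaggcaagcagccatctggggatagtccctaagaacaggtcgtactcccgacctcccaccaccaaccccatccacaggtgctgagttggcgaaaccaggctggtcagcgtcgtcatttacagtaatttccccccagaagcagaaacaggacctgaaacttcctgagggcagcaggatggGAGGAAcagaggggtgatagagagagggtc
C1qc: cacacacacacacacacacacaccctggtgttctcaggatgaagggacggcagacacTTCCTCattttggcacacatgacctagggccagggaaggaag
Fcgr3: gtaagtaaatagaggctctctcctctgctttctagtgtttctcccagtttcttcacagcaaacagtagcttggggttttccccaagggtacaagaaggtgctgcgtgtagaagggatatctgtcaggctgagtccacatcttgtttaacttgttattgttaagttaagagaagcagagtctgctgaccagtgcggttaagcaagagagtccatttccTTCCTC
C3ar1: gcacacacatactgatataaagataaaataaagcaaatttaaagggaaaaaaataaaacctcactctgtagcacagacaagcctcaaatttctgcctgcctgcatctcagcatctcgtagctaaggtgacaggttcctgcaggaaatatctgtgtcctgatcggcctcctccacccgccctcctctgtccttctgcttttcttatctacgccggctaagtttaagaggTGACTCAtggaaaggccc
GAGGAA or its reverse complement was found in 4 of the 8 promoters, C1qb, C1qc, Fcgr1 and Fcgr3, and in 23.1% of 27025 RefSeq promoters of the same length. It began 30 bases before the start site in C1qb, 193 in C1qc and 6 in Fcgr3. TGANTCA was found in 1 of 8 promoters (C3ar1) and 6.9% of all. The gamma-activated site TTCNNNGAA was found in 1 of 8 (Fcgr1) and 7.2% of all, and GAAANNGAA, the core of the interferon-stimulated element, in 1 of 8 (C5ar1) and 7.2% of all. The motifs were searched on both strands and did not overlap in these windows. A match is a description of letters and not evidence of binding.

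Total counts lay between 698930 and 954191 for WT and between 2024372 and 2712754 for Emb knockdown. The ribosomal gene Rn18s-rs5 took 3.55% to 13.0% of WT counts and 29.2% to 42.5% of Emb knockdown counts. Depth, ribosomal share and genotype thus cannot be told apart in this design. Emb itself was counted 4, 6, 22 and 16 times in WT and 5, 25, 3 and 5 times in Emb knockdown, so the groups overlapped (log2 fold change -1.24 ± 0.82 SE, edgeR quasi-likelihood adjusted p = 0.529). Of the sort antigens, Cd24a (CD24) had 1 to 15 counts in WT and 9 to 150 counts with Emb knockdown, and Ncam1 (CD56) had 122 to 993 and 822 to 2800 counts. The 15 enteric neuron markers summed to between 278 and 498 CPM (counts scaled to a common library size) in WT and between 255 and 534 in Emb knockdown. Per kilobase, the median neuron marker stood at 1.00 to 1.94 times the level of the sensory receptor genes described below in WT, and at 1.93 to 2.20 times with Emb knockdown. The median of the 9 markers of enteric glia was at 1.68 to 4.87 and 5.18 to 11.2 times, so that in the knockdown libraries, which are labelled as neurons, it lay above that of the neuron markers. The summed level of the glia markers is not reported here.

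Levels below are CPM after TMM scaling, which sets libraries to a trimmed mean of their gene ratios, with replicates 1 to 4 in order. The counting error alone allows a gene with 0 counts a level of up to 4.22 CPM in the shallowest WT library and up to 2.00 CPM in Emb knockdown replicate 1, which had the smallest scaled size of its group. In bulk libraries, fewer cells of a type and less RNA per cell cannot be told apart.

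C1qa was by far the most abundant member. Its level was 2327, 1355, 510.4 and 1748 CPM in WT and 5233, 2812, 3978 and 3724 CPM in Emb knockdown. Every Emb knockdown library lay above every WT library, and WT replicate 3 was the lowest of all 8. The means (SD, n = 4) were 1485 ± 763 CPM for WT and 3937 ± 999 CPM for Emb knockdown, a log2 fold change of 1.41 ± 0.61 (SE). Within the Emb knockdown group the highest library exceeded the lowest by 1.86 times, the tightest spread of any member there.

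C1qb stood at 16.7, 27.6, 23.6 and 2.81 CPM in WT and 27.3, 150.04, 82.7 and 42.6 CPM in Emb knockdown. The groups met at one point: Emb knockdown replicate 1 lay just under WT replicate 2, and the other 3 Emb knockdown libraries were above all WT libraries. Its log2 fold change was 2.08 ± 0.79 (SE), from means of 17.7 ± 10.9 and 75.7 ± 54.8 CPM (SD, n = 4).

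C1qc stood at 10.3, 10.3, 1.52 and 15.5 CPM in WT and 149.9, 107, 391 and 1.25 CPM in Emb knockdown. Of the Emb knockdown libraries, 3 exceeded every WT library and replicate 4, with 2 counts, was below every one of them. The means of 9.40 ± 5.79 and 162 ± 165 CPM (SD, n = 4) gave a log2 fold change of 4.12 ± 1.28 (SE). Without Emb knockdown replicate 4 the log2 fold change of C1qc was 4.55, and without replicate 3 it was 3.23. It was 3.22 with limma voom and 3.43 with a replicate block.

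The 3 chains did not keep a common ratio across libraries. Per exonic kilobase, C1qa exceeded C1qb by 22.6 to 651 times in WT libraries and by 19.6 to 200.4 times in the others. C1qa exceeded C1qc by 210 to 623 times in WT, and by 64.8, 49.0 and 18.9 times in Emb knockdown replicates 1 to 3. In Emb knockdown replicate 4, where C1qc had 2 counts, that ratio was 5518 (95% exact Clopper-Pearson interval 1527 to 45576, which covers counting error only). C1qb and C1qc changed order between libraries: their ratio was 2.88, 4.73, 27.5 and 0.323 in WT and 0.323, 2.50, 0.375 and 60.3 in Emb knockdown. The WT ratios of 27.5 and 0.323 rest on 2 counts of 1 gene, with intervals of 7.00 to 237 and 0.0348 to 1.48, and so does the 60.3 (16.1 to 508). In Emb knockdown replicates 1 and 3, with at least 41 counts of each gene, the ratio lay below 1 (intervals 0.226 to 0.453 and 0.313 to 0.447), and in replicate 2 it lay above 1 (2.08 to 3.01).

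**Figure D1:**
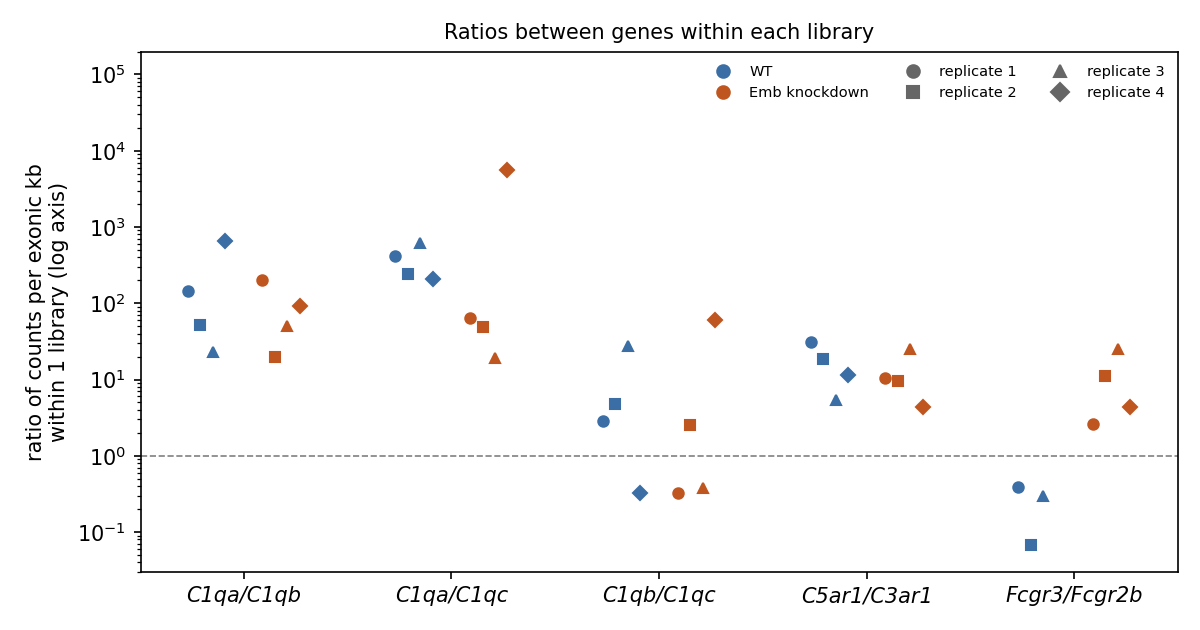
Ratios of counts per exonic kilobase between pairs of genes within each library, on a log axis, with WT in blue, Emb knockdown in orange and a marker shape per replicate. C1qa exceeded C1qb and C1qc in all 8 libraries, and Fcgr3 exceeded Fcgr2b in the 4 Emb knockdown libraries and in none of the 3 WT libraries with a count of Fcgr3; the WT library with 0 counts of Fcgr3 is not drawn.

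C3ar1, the receptor for C3a, was low in WT, at 5.15, 4.60, 8.37 and 8.43 CPM. It stood at 54.6, 43.5, 17.3 and 13.8 CPM in Emb knockdown. All Emb knockdown libraries lay above all WT libraries, with replicates 3 and 4 nearest to them. The means were 6.64 ± 2.05 and 32.3 ± 19.9 CPM (SD, n = 4), and the log2 fold change was 2.26 ± 0.67 (SE).

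C5ar1, the receptor for C5a that draws in neutrophils and macrophages, stood at 95.2, 50.6, 26.6 and 57.6 CPM in WT and 346, 249.7, 263 and 36.3 CPM in Emb knockdown. Replicates 1 to 3 of the knockdown lay above all WT libraries, and replicate 4 lay within the WT range. The log2 fold change was 1.96 ± 0.81 (SE), from means of 57.5 ± 28.4 and 224 ± 132 CPM (SD, n = 4). C5ar1 exceeded C3ar1 per kilobase in all 8 libraries, by 5.33 to 31.0 times in WT and, in an overlapping range, 4.42 to 25.4 times in the knockdown. C5ar2, the second C5a receptor and not among the 10, was below the filter on low counts, with 2 to 24 counts in WT and 7 to 15 in Emb knockdown.

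Fcgr3, the activating low-affinity IgG receptor, had the largest fold change of the 10. Its level was 7.72, 1.15, 3.04 and 0 CPM in WT, from 6, 1, 4 and 0 counts, and 113, 253, 407 and 62.7 CPM in Emb knockdown, from 170, 477, 754 and 100 counts. The groups were far apart, with the lowest Emb knockdown library above the highest WT library. The means were 2.98 ± 3.40 and 209 ± 155 CPM (SD, n = 4), and the log2 fold change was 6.09 ± 1.14 (SE).

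Fcgr2b, the inhibitory receptor, differed much less. It stood at 66.9, 57.5, 34.2 and 47.8 CPM in WT and 147, 76.3, 53.5 and 47.6 CPM in Emb knockdown. Replicates 1 and 2 of the knockdown were above all WT libraries and the other 2 were within the WT range. The log2 fold change was 0.65 ± 0.61 (SE), 0.21 without Emb knockdown replicate 1, and -0.13 when libraries were scaled by their totals alone.

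The ratio of Fcgr3, an activating receptor, to the inhibitory Fcgr2b differed between the groups. Per kilobase, Fcgr3 was 0.385, 0.0667 and 0.296 times Fcgr2b in WT replicates 1 to 3, and had no count in replicate 4. The second of these rests on 1 count (95% exact interval 0.00166 to 0.389). In Emb knockdown the ratio was 2.58, 11.0, 25.4 and 4.39, above 1 in every library. Such a ratio within a library does not depend on how libraries are scaled. The ratio leaves out Fcgr4, another activating IgG receptor. Per kilobase, Fcgr4 was 0.691, 27.6 and 81.5 times Fcgr3 in WT replicates 1 to 3, from 6, 1 and 4 counts of Fcgr3. In Emb knockdown it was 12.2, 1.98, 0.724 and 4.13 times Fcgr3. The balance of all activating receptors against Fcgr2b was not examined. Fcgr2b, Fcgr3 and Fcgr4 are similar in sequence, and the counting could have split their shared reads in ways the table does not show. Gm38204, an antisense gene that overlaps Fcgr2b, had 0 to 5 counts in each library.

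Fcgr1, the high-affinity IgG receptor, was at the edge of detection, with 1, 1, 2 and 0 counts in WT and 1, 6, 18 and 1 in Emb knockdown. These are 1.29, 1.15, 1.52 and 0 CPM and 0.666, 3.18, 9.73 and 0.627 CPM. Replicates 2 and 3 of the knockdown were above the WT libraries and the other 2 were within their range. Without Emb knockdown replicate 3 its log2 fold change moved from 1.93 ± 1.60 (SE) to 0.73. The latter values, and those of Fcer1g, come from a fit with no filter on low counts.

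Both adaptors overlapped between the groups. Fcer1g, whose product carries the signal of Fcgr1 and Fcgr3, stood at 0, 2.30, 31.2 and 7.03 CPM in WT and 0.666, 12.7, 0 and 2.51 CPM in Emb knockdown. No Emb knockdown library lay above all WT libraries, and 2 of the 8 libraries had no count, which allows up to 3.86 CPM in WT replicate 1 and 1.62 CPM in Emb knockdown replicate 3. In that Emb knockdown library Fcgr3 had 754 counts, the highest of any. The log2 fold change of Fcer1g was -1.12 ± 1.12 (SE), and 0.63 without WT replicate 3, which held 41 of the 48 WT counts.

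Tyrobp stood at 6.43, 70.1, 2.28 and 0 CPM in WT and 44.6, 6.89, 1.08 and 9.40 CPM in Emb knockdown. One library of each group, WT replicate 2 and Emb knockdown replicate 1, was well above the other libraries of its group, and the groups overlapped. Its log2 fold change of -0.35 ± 1.31 (SE) became 2.46 without WT replicate 2. Without Emb knockdown replicate 1, Tyrobp fell below the filter. A fit with no filter then gave -1.57, against -0.10 in such a fit of all libraries.

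**Figure D2:**
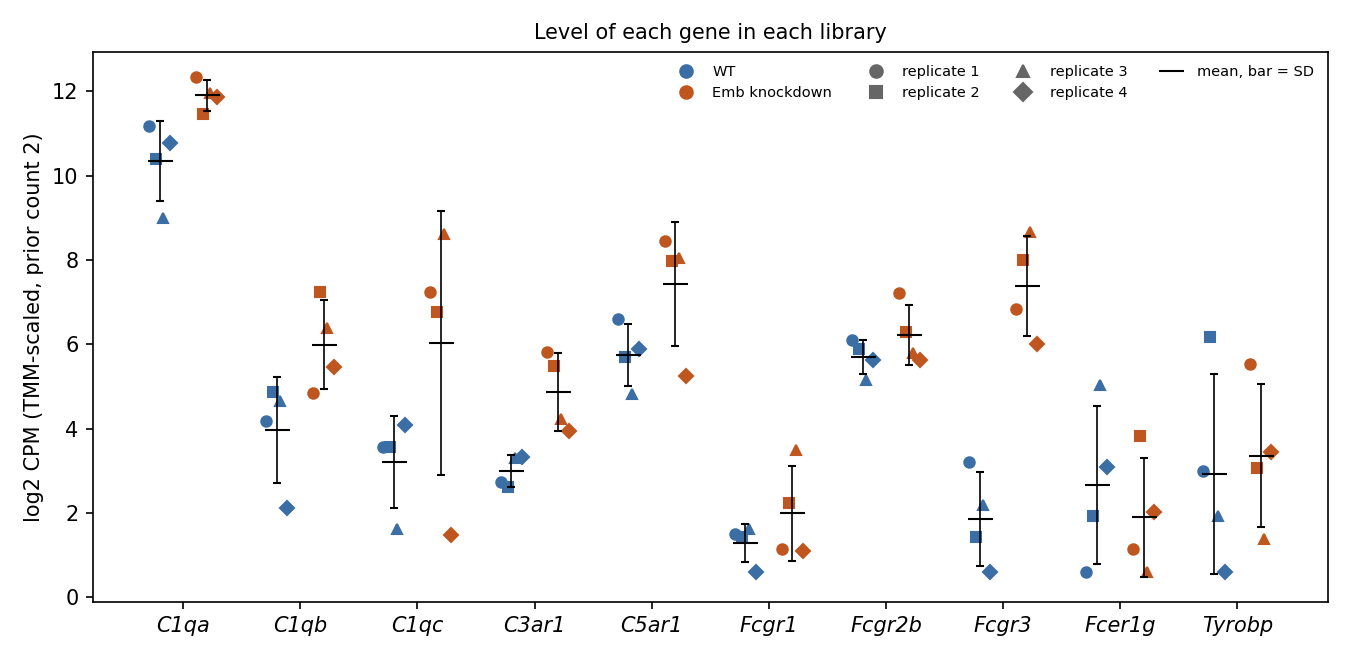
Log2 CPM (TMM scaling, prior count 2) of each gene in each library, with WT in blue, Emb knockdown in orange, a marker shape per replicate, and black dashes and bars for the mean and SD of the log2 values (n = 4). The groups are separate for C1qa, C3ar1 and Fcgr3, and overlap for the other 7 genes, most fully for Fcer1g and Tyrobp.

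Summed over the 10 genes, the level was 2537, 1581, 643 and 1887 CPM in WT and 6116, 3714, 5203 and 3941 CPM in Emb knockdown. With TMM the groups did not overlap, but C1qa made up 87.4% ± 6.13 of the WT sum and 83.1% ± 8.85 of the Emb knockdown sum (SD, n = 4). Without C1qa the sum ranged from 132 to 225 CPM in WT and from 217 to 1226 CPM in Emb knockdown. Replicate 4 was the low end of the knockdown group there, within the WT range. It was the lowest Emb knockdown library for 6 of the 10 genes (C1qc, C3ar1, C5ar1, Fcgr1, Fcgr2b and Fcgr3) and the highest for none, whereas replicate 1 was the highest for 5 (C1qa, C3ar1, C5ar1, Fcgr2b and Tyrobp).

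The members ordered differently by level per exonic kilobase in each genotype. In WT the order was C1qa (1428 ± 733 CPM per kb), Tyrobp (29.5 ± 50.5), C5ar1 (22.4 ± 11.1), C1qb (16.2 ± 9.999), Fcer1g (11.6 ± 16.4), Fcgr2b (8.91 ± 2.41), C1qc (4.87 ± 3.00), Fcgr3 (1.72 ± 1.96), C3ar1 (1.54 ± 0.48) and Fcgr1 (0.382 ± 0.262; SD, n = 4). Neighbours from Tyrobp down to Fcgr2b differed by less than their pooled SD, as did Fcgr3 and C3ar1. In Emb knockdown the order was C1qa (3785 ± 960.3), Fcgr3 (120.4 ± 89.2), C5ar1 (87.0 ± 51.3), C1qc (84.0 ± 85.4), C1qb (69.5 ± 50.4), Tyrobp (23.2 ± 29.6), Fcgr2b (14.0 ± 7.85), C3ar1 (7.50 ± 4.63), Fcer1g (4.55 ± 6.78) and Fcgr1 (1.37 ± 1.66). There, Fcgr3, C5ar1, C1qc and C1qb differed from their neighbours among themselves by less than the pooled SD, as did Tyrobp and Fcgr2b, C3ar1 and Fcer1g, and Fcer1g and Fcgr1. Fcgr3 stood eighth in WT and second in Emb knockdown.

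Levels were also set against 1506 olfactory, vomeronasal and trace amine receptor genes, sensory receptor genes used here as a measure of background, which averaged 1.07 to 2.01 counts per kilobase in WT and 1.26 to 2.28 in Emb knockdown. C1qa exceeded them by 321 to 1316 times in the WT libraries and 2820 to 5975 times in those of Emb knockdown. C3ar1 was at 0.703 to 1.30 times their level in WT, and at 3.03 to 15.1 times with Emb knockdown. Fcgr3 ranged from 0 to 2.62 times in WT and from 34.1 to 191 times in the knockdown. C1qc in Emb knockdown replicate 4 was at 0.614 times, below the background, while it reached up to 164 times in the rest of that group. Fcgr1 lay between 0 and 0.384 times in WT and between 0.229 and 3.05 times in the knockdown.

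**Figure D3:**
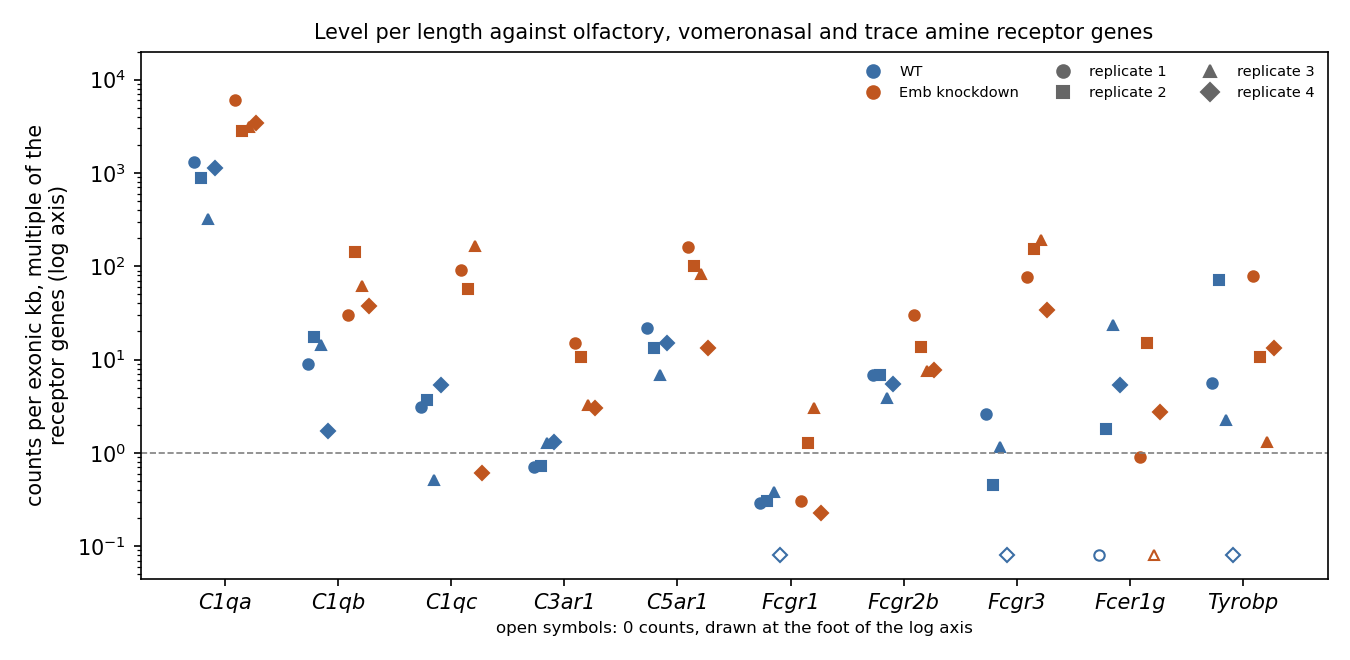
Counts per exonic kilobase of each gene as a multiple of the same quantity for 1506 receptor genes of the same library, on a log axis with the dashed line at 1; open symbols at the foot mark 0 counts. C3ar1 and Fcgr1 lay near or under the line in WT, and C1qa lay at 321 times or more in every library.

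Which groups stayed apart depended on the scaling. With TMM, all Emb knockdown libraries lay above all WT libraries for 3 of the 10 genes (C1qa, C3ar1 and Fcgr3), a pattern that 4.03% of the 11353 genes tested showed, and lay below for none (4.25% of genes tested). With library totals alone, all Emb knockdown libraries lay above for 1 gene, Fcgr3, and with scaling to the receptor genes for 5 (C1qa, C1qb, C3ar1, Fcgr2b and Fcgr3). The share of all genes was not computed under these other scalings. They shift all genes, with a median log2 fold change over all genes of -0.67 and 0.64, respectively. Nothing is read from these counts or shares, since the genes were chosen on this contrast.

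The fit over all genes, with edgeR's quasi-likelihood test, called 0 of 11353 genes at an adjusted p under 0.05 (0%), with a lowest adjusted p of 0.0719. At an unadjusted p under 0.05 it had 1508 genes (13.3%), 981 higher and 527 lower in Emb knockdown. Scaling by library totals turned that split to 375 higher of 2079, and scaling to the receptor genes to 2060 higher of 2201. Of the 10 members, whose calls are given only for completeness, 8 passed the filter on low counts (Fcgr1 and Fcer1g did not), 0 were called and 6 had an unadjusted p under 0.05. DESeq2 called 6 of the members (C1qa, C1qb, C1qc, C3ar1, C5ar1 and Fcgr3) and 6.6% of all genes. Limma voom called 0 members and 0% of genes, and edgeR with no filter called 2 members (C1qc and Fcgr3) and 1.88% of 48530 genes.

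Over all 10 members the median log2 fold change was 1.95, with 8 higher and 2 lower in Emb knockdown, beside a median of 0.04 over all genes tested, of which 51.6% were higher. The median of all genes moved to -0.67 with library totals alone and to 0.64 with scaling to the receptor genes. The members' median moved with it, to 1.27 and 2.40, so that it lay 1.91, 1.94 and 1.76 above that of all genes under the 3 scalings. Under each scaling, Fcgr1 and Fcer1g took values from a fit with no filter, but the median of all genes came from the filtered fit. With TMM, the fit with no filter had a median of 0.25 over all genes. Over the 8 members that passed the filter, the median with TMM was 2.02, with 7 higher and 1 lower.

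**Figure D4:**
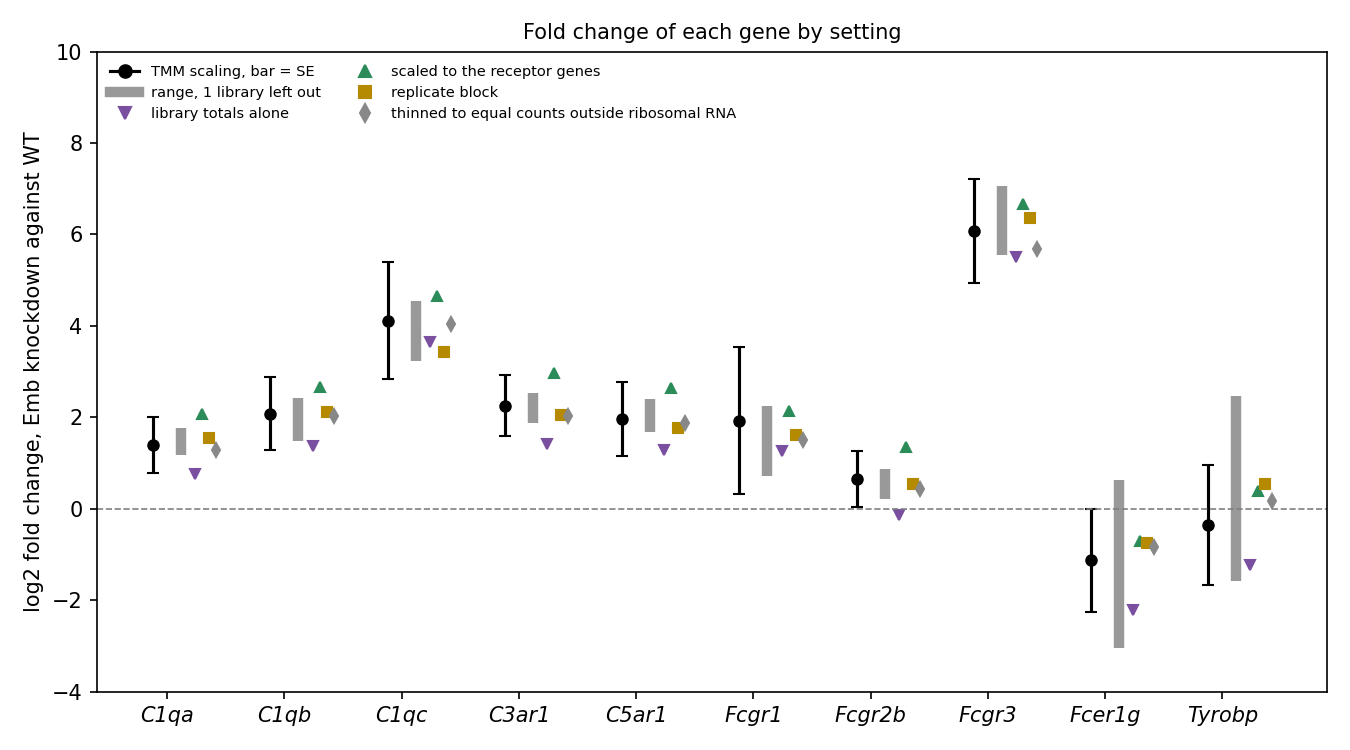
Log2 fold change of Emb knockdown against WT for each gene: black points with bars are the TMM fit and its SE, grey bars the range when each library in turn is left out, and coloured symbols the other settings named in the legend. C1qa, C1qb, C1qc, C3ar1, C5ar1, Fcgr1 and Fcgr3 were above 0 under every setting drawn, while Fcgr2b, Fcer1g and Tyrobp crossed it. Where a gene was below the filter, its value comes from a fit with no filter. This holds for Fcgr1 throughout, for Fcer1g mostly, and for Tyrobp and C3ar1 in some settings.

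The other genes of the system were taken from 6 lists with 127 genes, and edgeR called 0 genes of any list at an adjusted p under 0.05. Whether groups overlapped is given with TMM only, here and for the markers below, and was not examined under other scalings. Most of the genes named had the lowest unadjusted p of their list, which favours groups that lie apart. Of 27 further complement components, 10 were tested and 7 of these were higher, with a median log2 fold change of 0.41. C4b, a component cleaved by C1s in the classical pathway, stood apart: it was counted 9, 25, 25 and 13 times in WT and 1768, 244, 250 and 361 times in Emb knockdown (19.4 ± 7.07 and 417 ± 509 CPM, log2 fold change 4.42 ± 0.99 SE, edgeR adjusted p = 0.275). C1s1, a protease that C1q carries, had 0, 0, 17 and 0 counts in WT and 146, 102, 21 and 9 in Emb knockdown (3.49 ± 1.33, edgeR adjusted p = 0.320). C1ra, its partner protease, was below the filter, with 1 to 10 counts in WT and 6 to 84 in Emb knockdown. C3, the central component, had a log2 fold change of 0.96 ± 0.82 and Hc, the gene of C5, one of -0.94 ± 0.79, both smaller than the spread between libraries (edgeR adjusted p = 0.634 and 0.626).

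Of 16 complement regulators, 7 were tested, 5 of them higher, with a median of 0.28. Csmd2 (-0.69 ± 0.56), Cd59a, which blocks the membrane attack complex (0.69 ± 0.64), Vtn (0.79 ± 0.99) and Serping1, the C1 inhibitor (-0.34 ± 0.72), had the lowest p-values of that list, and edgeR's adjusted p was at least 0.613. Of 12 further complement receptors, 9 were tested and 7 were higher, with a median of 0.77.

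The integrin pair that forms complement receptor 3 split. Itgam, its alpha chain, was counted 3934, 5015, 1847 and 2113 times in WT and 207, 492, 1170 and 866 times in Emb knockdown (3800 ± 1990 and 393 ± 232 CPM, -3.27 ± 0.75, edgeR adjusted p = 0.275). All its WT libraries lay above all Emb knockdown libraries in CPM. Itgb2, the beta chain, was counted 2, 17, 3 and 4 times in WT and 509, 132, 14 and 18 times in Emb knockdown (3.82 ± 1.28, edgeR adjusted p = 0.304), so the groups overlapped. Cd93, once described as a C1q receptor, stood at 11.7 ± 3.52 and 32.3 ± 10.3 CPM without overlap (1.47 ± 0.56, edgeR adjusted p = 0.320).

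Of 14 other Fc receptors, 3 were tested. Fcgr4, another activating IgG receptor that uses the common gamma chain, was counted 3, 20, 236 and 33 times in WT and 1500, 685, 395 and 299 times in Emb knockdown. Its groups did not overlap in CPM, with WT replicate 3 just under the lowest Emb knockdown library (63.2 ± 79.5 and 441 ± 380 CPM, 2.79 ± 1.10, edgeR adjusted p = 0.323). Trim21, a cytosolic antibody receptor (-1.29 ± 0.87), and Pigr, the epithelial transporter of IgA and IgM (-0.66 ± 0.65), had edgeR adjusted p-values of 0.539 and 0.694.

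The list of adaptor-coupled receptors held 28 genes: receptors that use such adaptors, related activating or inhibitory receptors, and the adaptors Hcst and Cd247. Of these genes, 13 were tested, 7 higher and 6 lower, with a median of 0.67. Sirpa, the inhibitory receptor for CD47, stood at 10.4 ± 7.57 and 138 ± 201 CPM (3.72 ± 1.14, edgeR adjusted p = 0.295), and Clec7a, the beta-glucan receptor Dectin-1, at 34.8 ± 13.7 and 123 ± 42.7 (1.83 ± 0.62, edgeR adjusted p = 0.308). Neither overlapped between groups. Trem2, the partner of Tyrobp, had 1, 31, 18 and 20 counts in WT and 5, 2, 30 and 21 in Emb knockdown, and the groups overlapped.

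Of 30 signalling genes downstream of Fc receptors, 25 were tested, 13 higher and 12 lower, with a median of 0.06. Syk, the kinase that activating receptors recruit through the gamma chain, stood at 39.7 ± 27.1 and 41.3 ± 14.4 CPM (0.06 ± 0.65, edgeR adjusted p = 0.980). Ptpn6, the phosphatase SHP-1, stood at 4.62 ± 4.28 and 36.2 ± 28.6 CPM without overlap (2.95 ± 0.97, edgeR adjusted p = 0.304), and Card9, an adaptor downstream of Syk, at 14.1 ± 5.77 and 3.61 ± 2.18 CPM without overlap (-1.93 ± 0.71, edgeR adjusted p = 0.312). The WT mean of Was, an actin regulator, rested on 1 library: it had 581 counts in WT replicate 3 and 1 to 9 in the rest of that group.

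Markers of immune cells differed between the groups in both directions, gene by gene. All 19 macrophage markers were counted in both groups. They summed to between 1370 and 2496 CPM in WT and between 1539 and 5388 CPM in Emb knockdown, so the groups overlapped. Within the list, Cx3cr1, the fractalkine receptor, averaged 1151 ± 315 CPM for WT and 277 ± 300 CPM for the knockdown, with no overlap. Mrc1, the mannose receptor CD206, was at 42.9 ± 19.5 and 391 ± 220 CPM, also with no overlap. Of the 13 macrophage markers tested, edgeR called 0, and their median log2 fold change was 0.58.

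The summed level of the 14 neutrophil and monocyte markers was 146 to 243 CPM in WT and 119 to 316 CPM in Emb knockdown, and that of the 9 dendritic cell markers 34.7 to 171 and 48.9 to 104 CPM. Mast cell markers (10) summed to 37.3 to 103 and 84.0 to 562.5 CPM, T and NK cell markers (13) to 29.9 to 77.6 and 49.2 to 84.6 CPM, with Trbc1 at 0 counts in all WT libraries, and B and plasma cell markers (10) to 25.7 to 151 and 54.6 to 1163 CPM, with Mzb1 at 0 counts in all WT libraries. Outside the immune lists, fibroblast markers (7) lay apart, at 72.0 to 225 CPM in WT and 262.5 to 497 CPM in Emb knockdown. Epithelium (11 markers, 222 to 316 and 172 to 296 CPM), smooth muscle (7, 57.6 to 92.0 and 41.6 to 70.6 CPM), endothelium (7, 541 to 2032 and 229.6 to 1436 CPM) and erythroid cells (5, 0 to 582 and 0.530 to 10.7 CPM, with Hbb-bt at 0 counts in all Emb knockdown libraries) overlapped between groups. The part of these cell types, of depth and of the ribosomal share in the levels of the 10 genes was not tested.

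Outside the members, the genes whose profile over the 8 libraries lay nearest to the members' mean profile were sought among 10217 protein-coding genes, by the root mean square difference of log2 CPM centred on each gene's mean. The nearest were Scn7a, a sodium channel gene (0.23), Pgm2 (0.25), the early response gene Egr3 (0.25), Map3k14, the kinase NIK (0.29), Smarca5, a chromatin remodelling ATPase (0.30), and Itsn2, an endocytic scaffold (0.33). Scn7a averaged 824 ± 157 CPM for WT and 2544 ± 786 CPM for the knockdown, and Egr3 at 12.2 ± 3.11 and 50.5 ± 21.7 CPM. The members themselves lay farther from their own mean, from 0.58 for C3ar1 and 0.64 for C5ar1 to 1.77 for C1qc, 1.80 for Tyrobp, 1.99 for Fcer1g and 2.09 for Fcgr3. The outside genes were picked as the nearest of all those searched and the members were not. Nothing is therefore read from this difference.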

How the data were processed

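The authors deposited raw counts of 55414 genes for 8 libraries, 4 WT and 4 Emb knockdown, in a single table. Per the submitters' processing notes, cutadapt and the build mm10 were used; the sources used here do not give the aligner, counting tool, strand setting or annotation. Coordinates and exonic lengths came from GENCODE M21 (52133 identifiers found), and promoters from RefSeq (GRCm38.p6).

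Counts were filtered with filterByExpr (minimum count 10, minimum total 15), scaled by TMM and fitted with edgeR 4.0.16 quasi-likelihood models in R 4.3.3, with group as the only term. Benjamini-Hochberg adjustment ran over all genes tested, at a threshold of 0.05. SEs came from the fold change and the F statistic. Main values for Fcgr1 and Fcer1g came from a fit with no filter, as did those of any member in an alternative that filtered it out. DESeq2 1.42.0, limma 3.58.1 voom, other scalings, thinning, a replicate block and leaving out each library were alternatives. The fit was tested on simulated data.

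The members, lists and rules were chosen with earlier results of these data known. The named genes are the 10 members, the genes of the labels (Emb, Cd24a, Ncam1) and Rn18s-rs5, up to 4 tested genes per pathway list by lowest unadjusted p, up to 3 markers per list by mean CPM, and the 6 genes with the most similar profile (mean log2 CPM of at least 1); a few genes that this rule names are not reported here. C1ra, C5ar2, Trem2, Syk and Gm38204 were added after their values were seen. Library totals were 698930 to 2712754 counts. Reads were amplified and carry no molecular identifiers, so they are not independent molecules, and intervals and the limit for a count of 0 (3 counts) cover counting error only. Within a genotype no libraries were duplicates (Spearman correlation across the genes tested 0.351 to 0.487). These correlations are low for libraries of 1 genotype, which limits every comparison of the groups.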

Additional observations from a re-analysis of the deposited data

Results flagged for a closer look

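Tyrobp in WT replicate 2 stood far from the other WT libraries, at 70.1 CPM (61 counts) against 0 to 6.43 CPM. The gap to the nearest library was 0.908 of the group's range, above Dixon's 95% critical value for 4 samples. It was the only one of 22 groups of 4 examined that passed this limit. Chance alone passes it in about 1 group in 20 where values are normally distributed. The limit was applied to CPM without logs, for which that rate need not hold. Without that library the log2 fold change of Tyrobp was 2.46, against -0.35 with it. The cause was not tested.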

How the results depend on the processing

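The log2 fold changes of C1qa, C1qb, C1qc, C3ar1, C5ar1 and Fcgr3 kept their sign under all 17 alternatives, 8 of which left out 1 library each. Fcgr1 kept its sign under the 14 that gave it a value of its own; like Fcer1g, it was below the filter and got none from DESeq2, voom or dropping the filter, which was already its main fit. Leaving out each library in turn gave members' medians of 1.67 to 2.28 and 0 genes called. Genes called numbered 2 with library totals, 749 with DESeq2 and 910 with no filter, and members called numbered 6 with DESeq2 and 2 with no filter. With library totals the members' median was 1.27, Fcgr2b was -0.13, and the list medians were -0.30 (complement components), -0.40 (regulators), 0.11 (complement receptors), -0.27 (adaptor-coupled receptors) and -0.68 (signalling). Scaled to the receptor genes they were 1.02 (components), 1.35 (complement receptors), 1.39 (adaptor-coupled receptors) and 0.69 (signalling), Tyrobp was 0.38, and the log2 ratio of the members' summed levels was 2.17 against 1.51. Voom gave 0.48 for Tyrobp and 1.41 for complement receptors, and thinning to equal counts gave 0.16 for Tyrobp and 0.94 for other Fc receptors. With no filter, other Fc receptors were at 0.34 and adaptor-coupled receptors at -0.59. Leaving out 1 library moved Fcer1g between -3.04 and 0.63, Tyrobp between -1.57 and 2.46, components between 0.14 and 0.83, complement receptors between 0.42 and 0.90, other Fc receptors between -0.86 and 1.23, adaptor-coupled receptors between -0.36 and 1.12, and signalling between -0.10 and 0.75. The deviations of same-numbered libraries of the 2 groups correlated at 0.0113 to 0.0337, and not every library correlated best with its own number. Such values cannot show whether libraries of 1 number shared a batch. A replicate block called 0 genes, had 918 instead of 1508 genes at an unadjusted p under 0.05, and gave 0.54 for Tyrobp, 1.33 for complement receptors and -0.12 for adaptor-coupled receptors. List medians covered the genes that passed the filter in each setting. With no filter, with thinning or with 1 library left out, the genes behind a list median could therefore change. Other Fc receptors rested on 3 tested genes in the main fit. Tyrobp was below the filter with thinning and without any 1 Emb knockdown library, and its values there came from a fit with no filter. The share of the shifts that came from this was not tested, nor was any other cause. Low counts limit the precision of Fcgr1, Fcer1g and Tyrobp in both groups, and of C1qc, Fcgr3 and C3ar1 in WT.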
